A study of Mus musculus with 12 samples.

Results

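The transcripts followed here belong to 10 genes of the p53 response, of cell-cycle inhibition and of senescence, measured in primary mouse chondrocytes, the cells that make and maintain cartilage matrix. The genes are Cdkn1a, Cdkn1b, Cdkn2a and Cdkn2b (inhibitors of cyclin-dependent kinases), Trp53 and Mdm2 (p53 and the ligase that degrades it), and Gdf15, Sesn2, Ccng1 and Btg2 (known p53 targets). They were found by symbol through their Ensembl IDs, 10 of the 57010 IDs counted. Of the 10, 9 passed the filter on low counts and were tested, and Cdkn2b was listed at 0 in every library.

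The study transfected wild-type mouse chondrocytes with plasmids, and poly(A) RNA was sequenced from 12 libraries in 3 groups of 4. The groups are labelled Control (what these cells received is not stated), WT (a plasmid, called SIRT5_WT here and read as wild-type SIRT5) and SIRT5F101L mutant (a plasmid for the F101L form, called SIRT5_F101L). SIRT5 is a sirtuin of mitochondria that takes malonyl, succinyl and glutaryl groups off lysine residues. All 3 groups carry the label wild type for genotype, and the strain, age and sex of the mice, the time after transfection and the plasmid backbone are not given in the sources used here. Nothing says that libraries of a group came from separate cultures or animals, so the p-values measure the spread between these libraries, which may be technical.

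p53 is a transcription factor that is kept low by the ligase Mdm2, itself made from a p53 target gene, so that the pair forms a feedback loop. DNA damage and other stresses stabilise p53, which switches on Cdkn1a, the inhibitor that halts the cell cycle, together with genes of repair, metabolism and cell death. The Cdkn2a locus acts upstream and beside this loop: from overlapping reading frames it makes an inhibitor of the cyclin D kinases (p16) and a protein that blocks Mdm2 (p19Arf), and its rise is a widely used mark of senescence, also in ageing cartilage.

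Sequence just upstream of the start sites was examined first, because known p53 targets went in opposite directions. RefSeq (GRCm38.p6) gave 13 start sites for 10 of 10 members, and the 250 bases before each were searched on both strands for 5 motifs, chosen after these windows had been read. The motifs were the p53 element (a pair of directly adjacent decamers, each with its core of C, A or T, A or T, G and at most 1 mismatch outside it), the CRE TGACGTCA, the AP-1 site TGANTCA, the ATF4 site TGATGNAA and the E-box CACGTG. The p53 element was found in 0.103% of the 32851 mouse windows of this length, TGACGTCA in 1.55%, TGANTCA in 6.75%, TGATGNAA in 3.45% and CACGTG in 6.02%. Among the members, the p53 element occurred in 1 window (the upstream start of Cdkn1a), TGACGTCA in 2 (Btg2 and Cdkn2b) and CACGTG in 1 (a start of Gdf15), none of them overlapping another. The other 9 windows held none of the 5 motifs, which says only that these letters are absent from these bases.

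The windows of Cdkn1a, Mdm2 and Btg2 are shown, 5′ to 3′ and ending at the base before the start, because these 3 p53 targets did not move alike. Capitals mark a motif match: the p53 element in Cdkn1a, which lies 2822 bases before the gene's other start, and the CRE in Btg2.
Cdkn1a, chr17:29090729-29090978, plus strand: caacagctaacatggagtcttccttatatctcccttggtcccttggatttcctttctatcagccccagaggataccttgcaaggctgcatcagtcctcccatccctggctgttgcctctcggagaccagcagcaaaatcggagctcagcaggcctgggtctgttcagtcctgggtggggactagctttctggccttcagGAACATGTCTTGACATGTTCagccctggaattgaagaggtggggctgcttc
Mdm2, chr10:117710759-117711008, minus strand: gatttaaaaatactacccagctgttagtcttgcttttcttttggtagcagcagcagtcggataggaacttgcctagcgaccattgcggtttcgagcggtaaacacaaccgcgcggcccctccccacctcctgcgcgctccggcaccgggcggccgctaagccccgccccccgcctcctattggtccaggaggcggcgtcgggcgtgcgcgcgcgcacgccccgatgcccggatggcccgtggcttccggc
Btg2, chr1:134079156-134079405, minus strand: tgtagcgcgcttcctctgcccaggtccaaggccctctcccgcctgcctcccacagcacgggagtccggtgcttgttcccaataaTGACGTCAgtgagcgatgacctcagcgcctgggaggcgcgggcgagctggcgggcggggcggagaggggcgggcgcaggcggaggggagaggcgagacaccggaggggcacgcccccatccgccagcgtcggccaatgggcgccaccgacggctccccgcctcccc
The well-known p53-responsive promoter of Mdm2 lies inside the gene, outside the window shown.

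Libraries held 15095357 to 24242139 counts, so that 1 count was worth 0.0413 to 0.0662 CPM (the count scaled to library size) before TMM scaling. The first principal component, with 72.7% of the variance, separated Control from both plasmid groups, while on the second SIRT5_F101L replicate 1 lay at 20.3 and the other SIRT5_F101L libraries at -23.5 to -17.0. The SIRT5_WT libraries lay at -1.07 to 20.1 there, so that SIRT5_F101L replicate 1 lay beside them and not with the group of its label. The median chi-square of its counts was 2.61 to 6.27 times sampling noise against the SIRT5_WT libraries and 8.19 to 8.92 times against the other SIRT5_F101L libraries, which differed from each other by 3.05 to 3.62 times. Why this library stands there was not tested, and it stays in its labelled group. The comparison of the plasmids is therefore given with and without it. It was picked out from these same counts because it lay beside SIRT5_WT, so leaving it out favours a difference between the plasmid groups. The p-values of fits without it are therefore descriptive and not a separate test. Sirt5 itself, the check on the labels, had 9 to 16 counts in Control, 1 to 9 in SIRT5_WT and 9 to 19 in SIRT5_F101L. Mouse Sirt5 counts thus did not rise detectably in either plasmid group, and the check did not bear out the plasmid labels. The species and sequence of the plasmid insert are not given in the sources used here, so these counts may not measure the plasmid's transcript. The log2 fold change of Sirt5 against Control was -0.86 for SIRT5_WT (edgeR adjusted p 0.143), an interval (95%) of -1.89 to 0.16. For SIRT5_F101L it was 0.03 (edgeR adjusted p 0.954), an interval of -0.90 to 0.97. The 11 chondrocyte markers were all detected, 9 of them were called lower in each plasmid group, with 2 called higher in SIRT5_WT and 1 in SIRT5_F101L, and they summed to 9229 to 11591 CPM in Control, 2851 to 2966 in SIRT5_WT and 2321 to 2566 in SIRT5_F101L. Fibroblast markers (8 genes) summed to 30072 to 35976, 10913 to 12152 and 10755 to 11907 CPM, and osteoblast markers (7 genes) to 11239 to 13640, 3398 to 4169 and 3106 to 3922. Abundant genes weigh most in such sums: of 7 tested fibroblast markers 5 were called lower and 2 higher in each plasmid group, and of 5 tested osteoblast markers 3 were called lower and 2 were not called. Macrophage markers (9 genes, Itgam listed at 0) summed to 173 to 206, 86.3 to 98.7 and 85.3 to 110.3 CPM, and all 8 tested were called lower in each plasmid group. Endothelial markers (6 genes) stayed at 3.29 to 4.87 CPM in every library, muscle markers (6 genes) at 1.87 to 9.05, and erythroid markers (5 genes, Hba-a2 and Alas2 listed at 0) at no more than 0.765. The chondrocyte, fibroblast, osteoblast, macrophage and muscle sums were lower in every plasmid library than in any Control library. Col1a1 is in both the fibroblast and the osteoblast list, so their sums are not separate, and only 2 of the 6 muscle markers were tested. The part of these sums in the results on the p53 genes was not tested. In such bulk samples, fewer cells of a type and less RNA per cell cannot be told apart.

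Against Control, 8 of the 9 tested members passed edgeR's quasi-likelihood test (Benjamini-Hochberg adjusted p under 0.05 over 14253 genes) in each plasmid group. In SIRT5_WT 2 rose (Trp53 and Mdm2) and 6 fell (Cdkn1a, Cdkn1b, Cdkn2a, Btg2, Sesn2 and Gdf15). In SIRT5_F101L the same 6 fell, and Mdm2 and Ccng1 rose. The share of all genes called was 56.8% for SIRT5_WT (28.7% higher, 28.1% lower) and 60.7% for SIRT5_F101L (30% higher, 30.7% lower), so a call by itself was common in these libraries. The called members did not overlap between groups, except Ccng1, where 53.5% of all genes in the SIRT5_WT comparison and 51.3% in the SIRT5_F101L comparison did not overlap. The median log2 fold change of the 9 members was -0.51 and -0.44, where that of all tested genes was -0.01 and -0.02. Both comparisons use the same Control libraries, so their values are not independent of each other.

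**Figure D1:**
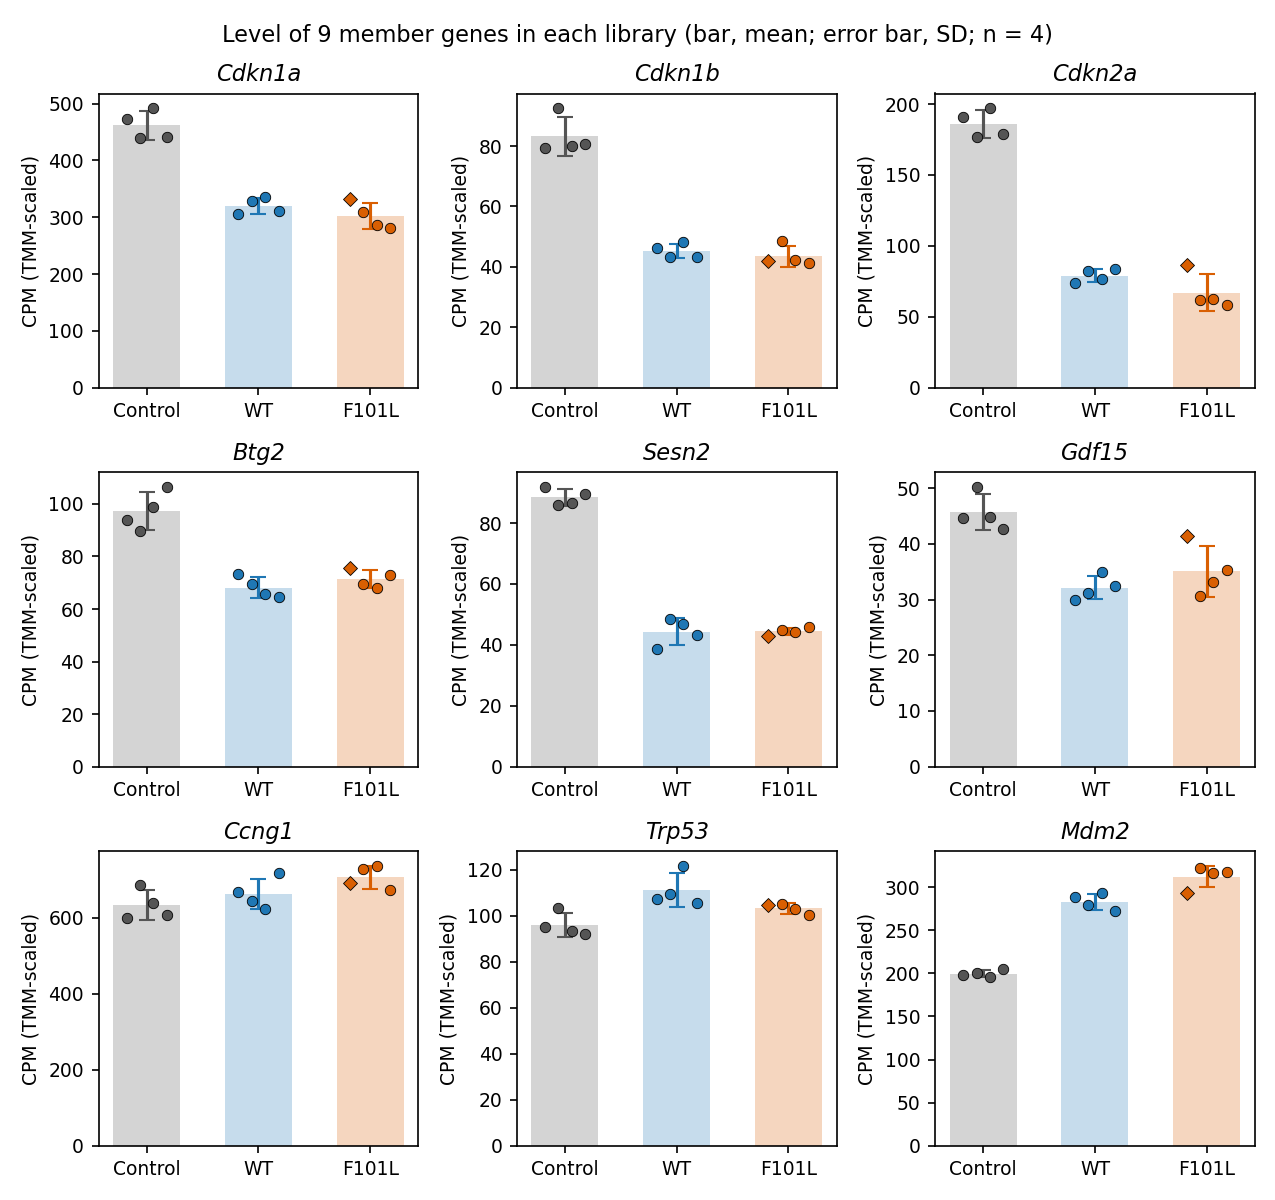
TMM-scaled CPM of the 9 detected genes (vertical axes, starting at 0) in each library of the 3 groups; bars are means, error bars SD (n = 4), points libraries, and the diamond is SIRT5_F101L replicate 1. Cdkn1a, Cdkn1b, Cdkn2a, Btg2, Sesn2 and Gdf15 are lower in every plasmid library than in any Control library, Mdm2 is higher in every plasmid library, and Ccng1 overlaps between groups.

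The 3 detected members that inhibit cyclin-dependent kinases fell. Cdkn1a (ENSMUSG00000023067), which encodes p21, the p53 target that blocks the kinases driving entry into S phase, was at 472, 439, 493 and 442 CPM in Control replicates 1 to 4. It was at 306, 329, 335 and 311 CPM in SIRT5_WT and at 332, 308, 286 and 281 CPM in SIRT5_F101L. All 8 plasmid libraries lay below all 4 Control libraries, and the plasmid groups overlapped. The means were 462 ± 25.7, 320.3 ± 13.8 and 302 ± 23 CPM (SD, n = 4). The log2 fold change against Control was -0.53 (± 0.06 SE, adjusted p of 5.90e-07 by edgeR) for SIRT5_WT and -0.61 (± 0.06 SE, adjusted p of 6.73e-08 by edgeR) for SIRT5_F101L. Of its exon bases, 7.68% also lie in a predicted gene whose ID is listed at 0 in every library.

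Cdkn1b (ENSMUSG00000003031) encodes p27, a related inhibitor that holds resting cells out of the cycle and is controlled largely through protein breakdown. Its level was 79.3, 92.8, 80 and 80.8 CPM in Control, 46.2, 43.4, 48.3 and 43.3 in SIRT5_WT and 42, 48.7, 42.1 and 41.4 in SIRT5_F101L. Control and plasmid libraries were far apart, with a gap between 48.7 and 79.3 CPM. The means were 83.2 ± 6.4, 45.3 ± 2.41 and 43.6 ± 3.46 CPM (SD, n = 4), with log2 fold changes against Control of -0.88 (± 0.07 SE, adjusted p of 2.63e-09 by edgeR) and -0.94 (± 0.07 SE, adjusted p of 9.36e-10 by edgeR).

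Cdkn2a (ENSMUSG00000044303) fell most among the members. Its counts cover both products, p16 and p19Arf, which a count per gene cannot separate. The 4 Control libraries held 191, 177, 198 and 179 CPM, the SIRT5_WT libraries 73.6, 82.4, 76.6 and 83.4 CPM and the SIRT5_F101L libraries 86.3, 61.5, 62.4 and 58.2 CPM. The lowest Control library stood at 177.1 CPM and the highest plasmid library at 86.3 CPM. SIRT5_F101L replicate 1 was the highest of the 8 plasmid libraries while the other 3 of its group were the lowest. Mean levels were 186 ± 9.9, 79 ± 4.7 and 67.1 ± 12.9 CPM (SD, n = 4). The log2 fold change against Control was -1.24 (± 0.09 SE, adjusted p of 6.69e-10 by edgeR) for SIRT5_WT and -1.47 (± 0.09 SE, adjusted p of 4.58e-11 by edgeR) for SIRT5_F101L, and the latter was -1.61 (± 0.06 SE, adjusted p of 3.64e-20 by edgeR) without replicate 1. Among all tested genes, 16.7% and 17.5% were called with a change of at least 2-fold in these comparisons.

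Cdkn2b (ENSMUSG00000073802), which encodes p15, an inhibitor of the cyclin D kinases induced by TGF-beta, was listed at 0 in all 12 libraries. Its neighbours on chromosome 4, Cdkn2a and Mtap, summed to 24632 and 30383 counts over the same libraries. B2m, which nearly all cells transcribe, and Ccl2 were listed at 0 in all 12 libraries too, as were all 2414 IDs of the X chromosome. A 0 in these files is therefore given only as listed, with no limit drawn from it.

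In the p53 loop, Mdm2 rose in both plasmid groups and Trp53 rose in SIRT5_WT. Trp53 (ENSMUSG00000059552), the gene of p53, was at 95.3, 104, 93.3 and 92.1 CPM in Control, 107, 109, 122 and 106 in SIRT5_WT and 105, 105, 103 and 100.3 in SIRT5_F101L. The SIRT5_WT libraries all lay above Control by a small margin, while Control replicate 2 lay within the range of SIRT5_F101L. Trp53 rose in SIRT5_WT by 0.21 (± 0.06 SE, adjusted p of 0.00609 by edgeR) on the log2 scale. In SIRT5_F101L its log2 fold change of 0.10 (± 0.06 SE, adjusted p of 0.145 by edgeR) did not pass, with an interval (95%) of -0.02 to 0.23. The difference between the plasmid groups, -0.11, did not pass either (edgeR adjusted p 0.485). A processed copy of the gene matches 20.2% of its longest transcript at 95% identity or more, but the copy's ID held 0 to 18 counts per library against 1620 to 2563 for Trp53.

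Mdm2 (ENSMUSG00000020184) encodes the ligase that marks p53 for destruction. The libraries held 198, 200.2, 196 and 205 CPM in Control, 289, 279.8, 293 and 272 in SIRT5_WT and 294, 322, 316 and 318 in SIRT5_F101L. The 3 groups did not overlap at all: Control was lowest, SIRT5_WT between, and SIRT5_F101L highest, although SIRT5_F101L replicate 1 stood just above the top SIRT5_WT library. The means were 199.8 ± 4.14, 283 ± 9.28 and 313 ± 12.8 CPM (SD, n = 4), with log2 fold changes against Control of 0.50 (± 0.05 SE, adjusted p of 8.98e-08 by edgeR) and 0.65 (± 0.05 SE, adjusted p of 2.17e-09 by edgeR).

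Among the further p53 targets, Btg2, Sesn2 and Gdf15 fell in both plasmid groups, and Ccng1 rose slightly in SIRT5_F101L. Btg2 (ENSMUSG00000020423), an antiproliferative gene that promotes mRNA deadenylation and also responds to growth factors, was at 93.7, 89.7, 98.9 and 107 CPM in Control. It was at 73.2, 69.5, 65.6 and 64.5 CPM in SIRT5_WT and at 75.6, 69.5, 67.9 and 72.8 CPM in SIRT5_F101L, with no plasmid library above 75.6 CPM. Its log2 fold change was -0.51 (± 0.07 SE, adjusted p of 1.74e-06 by edgeR) and -0.44 (± 0.07 SE, adjusted p of 9.30e-06 by edgeR).

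Sesn2 (ENSMUSG00000028893), a leucine sensor that restrains mTORC1 and is a target of both p53 and ATF4, was at 92, 86.1, 86.5 and 89.5 CPM in Control. The SIRT5_WT libraries held 38.7, 48.6, 46.7 and 43.4 CPM and the SIRT5_F101L libraries 42.8, 44.8, 44.2 and 45.9 CPM. Control libraries spanned 86.1 to 92.0 CPM and plasmid libraries 38.7 to 48.6 CPM. The log2 fold change was -1.0 (± 0.07 SE, adjusted p of 1.61e-10 by edgeR) for SIRT5_WT and -1.0 (± 0.07 SE, adjusted p of 1.58e-10 by edgeR) for SIRT5_F101L.

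Gdf15 (ENSMUSG00000038508), a secreted stress hormone of the TGF-beta superfamily, is likewise a target of p53 and of ATF4 signalling. Control libraries held 44.7, 50.3, 44.9 and 42.7 CPM, SIRT5_WT libraries 30, 31.2, 34.9 and 32.5 CPM and SIRT5_F101L libraries 41.3, 30.6, 33.1 and 35.3 CPM. SIRT5_F101L replicate 1, at 41.3 CPM, came close to the lowest Control library, at 42.7 CPM, though the groups did not overlap. The log2 fold change was -0.51 (± 0.09 SE, adjusted p of 5.83e-05 by edgeR) and -0.38 (± 0.09 SE, adjusted p of 9.09e-04 by edgeR), the latter -0.47 (± 0.08 SE, adjusted p of 6.69e-06 by edgeR) without that library.

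Ccng1 (ENSMUSG00000020326), cyclin G1, a p53 target that binds the phosphatase PP2A and acts on Mdm2, was the most abundant member. Its level was 600.2, 687, 639 and 608 CPM in Control, 667, 645, 623 and 717 in SIRT5_WT and 691, 728, 737 and 673 in SIRT5_F101L. All 3 groups overlapped. Its log2 fold change was 0.07 (± 0.06 SE, adjusted p of 0.385 by edgeR) for SIRT5_WT and 0.16 (± 0.06 SE, adjusted p of 0.0326 by edgeR) for SIRT5_F101L, and the second passed in 7 of the 12 fits that left out 1 library. It was lost without Control replicate 1, 3 or 4 or SIRT5_F101L replicate 2 or 3, with edgeR adjusted p-values up to 0.107.

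**Figure D2:**
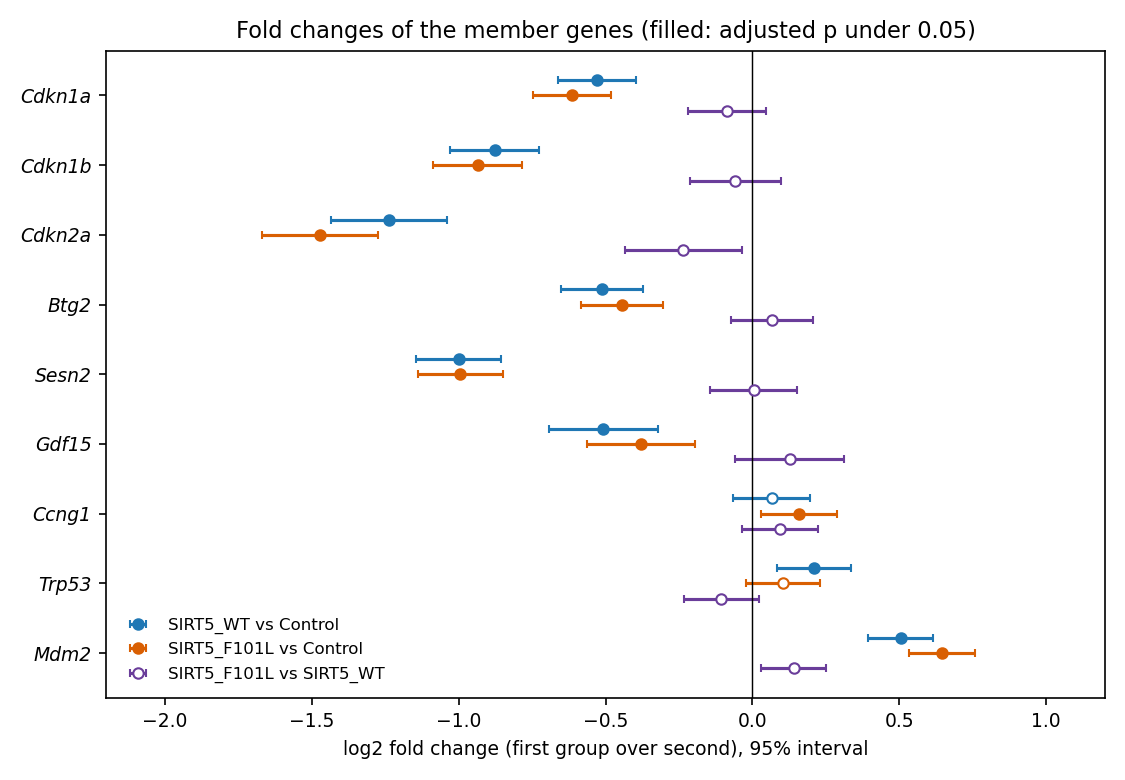
Log2 fold changes of the 9 tested genes (horizontal axis) in the 3 comparisons, with 95% intervals; filled points passed edgeR's test at an adjusted p under 0.05. Cdkn2a lies farthest below 0 (-1.24 and -1.47 against Control), Mdm2 farthest above (0.50 and 0.65), and no point of the comparison between the plasmid groups is filled.

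Levels were put in order per kilobase of exon (the union of exons in GENCODE M21, an approximation of transcript length). In Control the order of mean CPM per kilobase was Ccng1 (180.4 ± 11.2, SD, n = 4), Cdkn2a (159 ± 8.45), Cdkn1a (129.9 ± 7.23), Mdm2 (39.3 ± 0.815), Btg2 (35.4 ± 2.67), Sesn2 (25.5 ± 0.802), Gdf15 (24.6 ± 1.75), Trp53 (23.7 ± 1.27) and Cdkn1b (18.3 ± 1.41). The ranges of Mdm2 and Btg2 overlapped, as did those of Sesn2 and Gdf15 and of Gdf15 and Trp53. Cdkn2a, above Cdkn1a in Control, was below it in both plasmid groups, at 67.4 ± 4.01 against 90.1 ± 3.89 in SIRT5_WT and 57.2 ± 11 against 85 ± 6.49 in SIRT5_F101L. In SIRT5_WT Mdm2 (55.8 ± 1.83) came next, then Trp53 (27.5 ± 1.82) and Btg2 (24.9 ± 1.44), whose ranges overlapped, and then Gdf15 (17.4 ± 1.14) and Sesn2 (12.8 ± 1.25). In SIRT5_F101L the ranges of Cdkn2a and Mdm2 (61.5 ± 2.51) overlapped, as did those of Btg2 (26 ± 1.25) and Trp53 (25.5 ± 0.565), followed by Gdf15 (18.9 ± 2.47) and Sesn2 (12.8 ± 0.37). Ccng1 was highest in all 3 groups (189 ± 11.5 in SIRT5_WT and 201 ± 8.64 in SIRT5_F101L), and Cdkn1b was lowest (9.95 ± 0.53 and 9.57 ± 0.761).

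The comparison of the plasmids with each other asks what the F101L substitution alters. None of the 9 members passed edgeR's test, and 6 of all 14253 genes (0.0421%) did. At an unadjusted p under 0.05 there were 2 members, Mdm2 and Cdkn2a, where 11.9% of all genes were, and DESeq2 called 0 members. Mdm2 was higher in SIRT5_F101L by 0.14 (± 0.05 SE, adjusted p of 0.364 by edgeR), an interval (95%) of 0.03 to 0.25, and Cdkn2a lower, at -0.23 (± 0.09 SE, adjusted p of 0.371 by edgeR), an interval of -0.43 to -0.04. For the 7 others the intervals included 0: -0.22 to 0.05 for Cdkn1a, -0.21 to 0.10 for Cdkn1b, -0.23 to 0.02 for Trp53, -0.07 to 0.21 for Btg2, -0.14 to 0.15 for Sesn2, -0.06 to 0.31 for Gdf15 and -0.04 to 0.22 for Ccng1. These intervals do not show that the plasmids act alike. The groups did not overlap for Mdm2 and Trp53, 2 of 9 members, against 4.02% of all genes.

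Without SIRT5_F101L replicate 1, 15.2% of all genes were called between the plasmid groups, and so were Cdkn2a, at -0.38 (± 0.06 SE, adjusted p of 1.33e-04 by edgeR), and Mdm2, at 0.17 (± 0.05 SE, adjusted p of 0.0253 by edgeR). The other 7 members still did not pass, and no other library, left out in turn, gave a member past the threshold. SIRT5_F101L replicate 1 was picked out from these same counts, so these calls are descriptive.

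**Figure D3:**
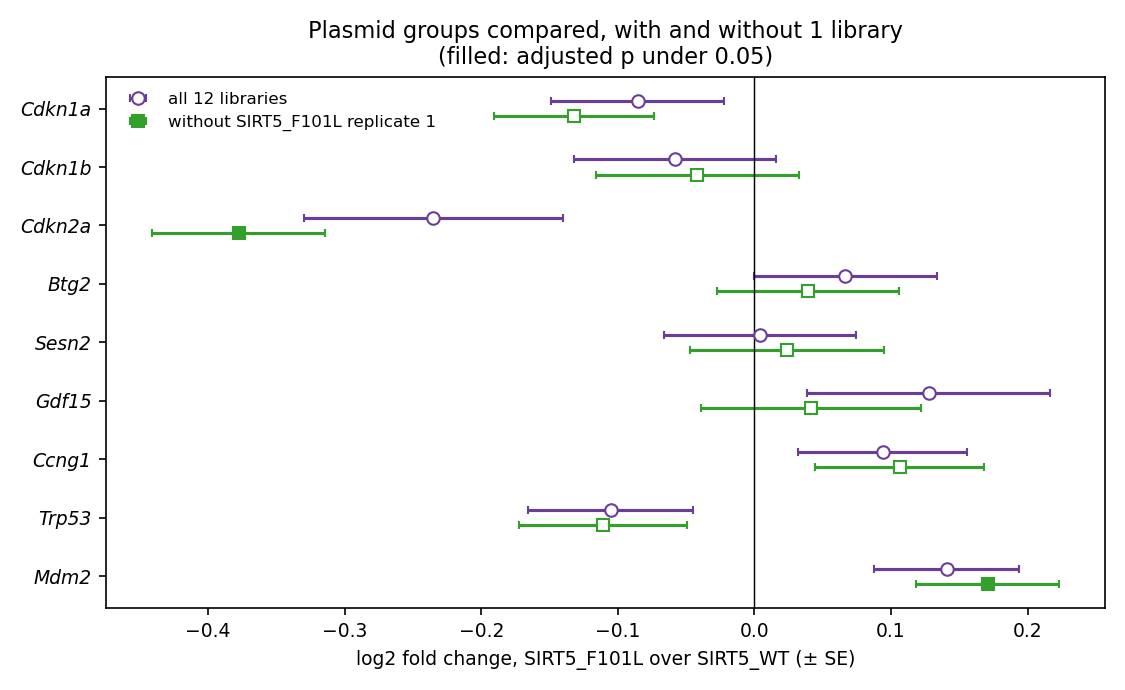
Log2 fold change of SIRT5_F101L over SIRT5_WT (horizontal axis, ± SE) for the 9 tested genes with all 12 libraries (circles) and without SIRT5_F101L replicate 1 (squares); filled symbols passed edgeR's test. Only the squares of Cdkn2a (-0.38) and Mdm2 (0.17) are filled.

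The regulators of p53 were looked at next, as 15 genes of which 14 were tested. In SIRT5_WT 5 rose and 4 fell, and in SIRT5_F101L 6 rose and 4 fell, with a median log2 fold change of 0.08 and 0.20, beside 28.7% higher and 28.1% lower of all genes for SIRT5_WT and 30% and 30.7% for SIRT5_F101L. Without SIRT5_F101L replicate 1 the second count was 9 higher and 3 lower, beside 31% and 32.1% of all genes. Genes named from here on had an adjusted p under 0.05 by edgeR in both comparisons, at most 0.048, unless another p is given, and paired values are log2 fold changes for SIRT5_WT and then SIRT5_F101L. Hipk2, a kinase that phosphorylates p53, rose most (2.31 and 2.78). Atm, the kinase that signals double-strand breaks to p53, rose by 0.85 and 1.0. Mdm4, the partner of Mdm2 that masks p53's activation domain, did not pass, at 0.08 (± 0.09 SE, adjusted p of 0.438 by edgeR) and 0.18 (± 0.09 SE, adjusted p of 0.0724 by edgeR). Mdm4 passed in SIRT5_F101L without its replicate 1, at 0.24 (± 0.07 SE, adjusted p of 0.00643 by edgeR), and without Control replicate 4 (0.24) or SIRT5_WT replicate 4 (0.18), with no filter beyond 1 count (0.18) and with only the 8 libraries compared (0.20). Of the genes that restrain p53, Rchy1, another ubiquitin ligase, fell (-0.47 and -0.43), as did Ppm1d, a phosphatase that is itself a p53 target (-0.30 and -0.35). The first value of Ppm1d did not pass without Control replicate 3 (-0.26) or SIRT5_WT replicate 1 (-0.25) or 2 (-0.26). Trp63, of the p53 family, fell as well, with -0.79 in SIRT5_WT and -0.34 in SIRT5_F101L, where the call was lost in 9 of the 12 fits without 1 library. Of these the fit without SIRT5_F101L replicate 1 moved it most (-0.21, adjusted p of 0.185 by edgeR), and the others gave -0.36 to -0.31. It was also lost with RLE scaling (-0.33), DESeq2 (-0.33), no filter beyond 1 count (-0.34) and only the 8 libraries compared (-0.31), so this call did not hold under most alternatives.

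A further list of 36 p53 targets was counted next. Of 35 tested, 10 rose and 14 fell in SIRT5_WT, and 10 rose and 15 fell in SIRT5_F101L, beside 28.7% higher and 28.1% lower of all genes in the first comparison and 30% and 30.7% in the second. The rises were thus near the share over all genes. The median was -0.09 and -0.11. Lowest were Gadd45a, a growth-arrest and DNA repair gene (-1.65 and -1.72), and Fas, the death receptor (-1.49 and -1.38). Among the named genes of mitochondrial cell death, Bax fell (-0.32 and -0.60) and Bbc3, which encodes PUMA, fell (-0.57 and -0.85). Pmaip1, which encodes NOXA, rose (0.78 and 1.07). Ckap2, a spindle gene, rose as well (0.77 and 0.78). Eda2r, on the X chromosome, was listed at 0.

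Of the remaining 12 inhibitors of the cell cycle, 5 rose and 2 fell in each plasmid group. Of all genes, 28.7% and 30% were called higher and 28.1% and 30.7% lower. Gas1, a membrane protein induced at growth arrest, fell (-2.09 and -2.09), and Btg1, a relative of Btg2, rose (0.89 and 0.94). Cdkn2d, which encodes p19Ink4d, rose by 0.54 and 0.31, the second lost without SIRT5_F101L replicate 1 (0.19, adjusted p of 0.104 by edgeR) or Control replicate 3 (0.30). Rb1, the retinoblastoma gene, rose by 0.35 and 0.60, the first lost without Control replicate 3 (0.30) or 4 (0.26) or SIRT5_WT replicate 1 (0.31). Cdkn2c, which encodes p18, did not pass (0.16 and 0.05, edgeR adjusted p 0.0857 and 0.557), and in SIRT5_WT it passed without SIRT5_F101L replicate 1, which enters the spread (0.16, edgeR adjusted p 0.0159). Cdkn1c, which encodes p57, the relative of Cdkn1a and Cdkn1b, was named after its values were seen and fell (-2.71 and -3.02).

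Genes that drive the cycle were set beside them. Of 13 G1 cyclins, kinases and E2F genes, 6 rose and 2 fell in SIRT5_WT, and 5 rose and 2 fell in SIRT5_F101L, against the shares of all genes just given. Ccnd1, cyclin D1, rose by 1.0 and 1.05, Myc by 0.90 and 0.83, and Cdk6 by 0.72 and 0.87, while Cdk4 (-0.58 and -0.77) and Ccnd2 (-0.41 and -0.32) fell. All 12 G2/M genes rose in both plasmid groups, with a median of 1.10 and 1.01, against 28.7% and 30% of all genes called higher. Bub1, a spindle checkpoint kinase, rose by 1.65 and 1.63, Plk1, a mitotic kinase, by 1.32 and 1.16, and Mki67, the gene of the Ki-67 antigen, by 1.31 and 1.31. Earlier results on these libraries had already shown proliferation genes higher. The rise is thus described beside the fall of Cdkn1a, Cdkn1b and Cdkn2a and is not independent support for it. The further inhibitors moved in both directions.

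Among genes associated with senescence more rose than fell. Of 18 genes, 15 were tested, Timp1 and Ccl2 were listed at 0 and Il1a was too low. In SIRT5_WT 9 rose and 3 fell, in SIRT5_F101L 10 rose and 2 fell, and the median was 0.61 and 0.51. Over all genes 28.7% and 30% were called higher and 28.1% and 30.7% lower, with a median of -0.01 and -0.02. The largest rises were in secreted genes, Mmp3, stromelysin (6.55 and 6.85), and Il6 (5.50 and 5.82), which other inflammatory states raise too. Igfbp4 (-0.27 and -0.22) and Igfbp3 (-0.25 and -0.24), binding proteins of insulin-like growth factors, fell. Lmnb1, the nuclear lamin that is typically lost in senescent cells, rose by 0.71 (± 0.09 SE, adjusted p of 2.00e-06 by edgeR) and 0.62 (± 0.09 SE, adjusted p of 1.13e-05 by edgeR).

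Since Sesn2 and Gdf15 also answer to ATF4, the transcription factor of the integrated stress response, 14 genes of that response were counted. In SIRT5_WT 3 rose and 8 fell, and in SIRT5_F101L 2 rose and 9 fell, with a median of -0.67 and -0.65. The shares of all genes called lower were 28.1% and 30.7%, and those called higher 28.7% and 30%. Trib3, a pseudokinase, fell (-2.32 and -2.31), and so did Chac1, which breaks down glutathione (-1.31 and -1.50), and Asns, asparagine synthetase (-1.38 and -1.41). Atf4 (-1.25 and -1.37) and Ddit3, which encodes CHOP (-1.25 and -1.24), both named after their values were seen, fell too. Atf3 rose (0.47 and 0.62), as did Slc7a11, the cystine transporter (0.31 and 0.48), the first lost without Control replicate 2 (0.27) or 4 (0.28) or SIRT5_WT replicate 1 (0.27) or 4 (0.23). Ddit4 rose in SIRT5_WT (0.40) and had 0.22 in SIRT5_F101L (adjusted p of 0.0937 by edgeR), where it passed without SIRT5_F101L replicate 2 (0.33). For this gene SIRT5_F101L replicate 1 was at 108.8 CPM, the others of its group at 64.0 to 81.8 and Control at 64.7 to 78.5.

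**Figure D4:**
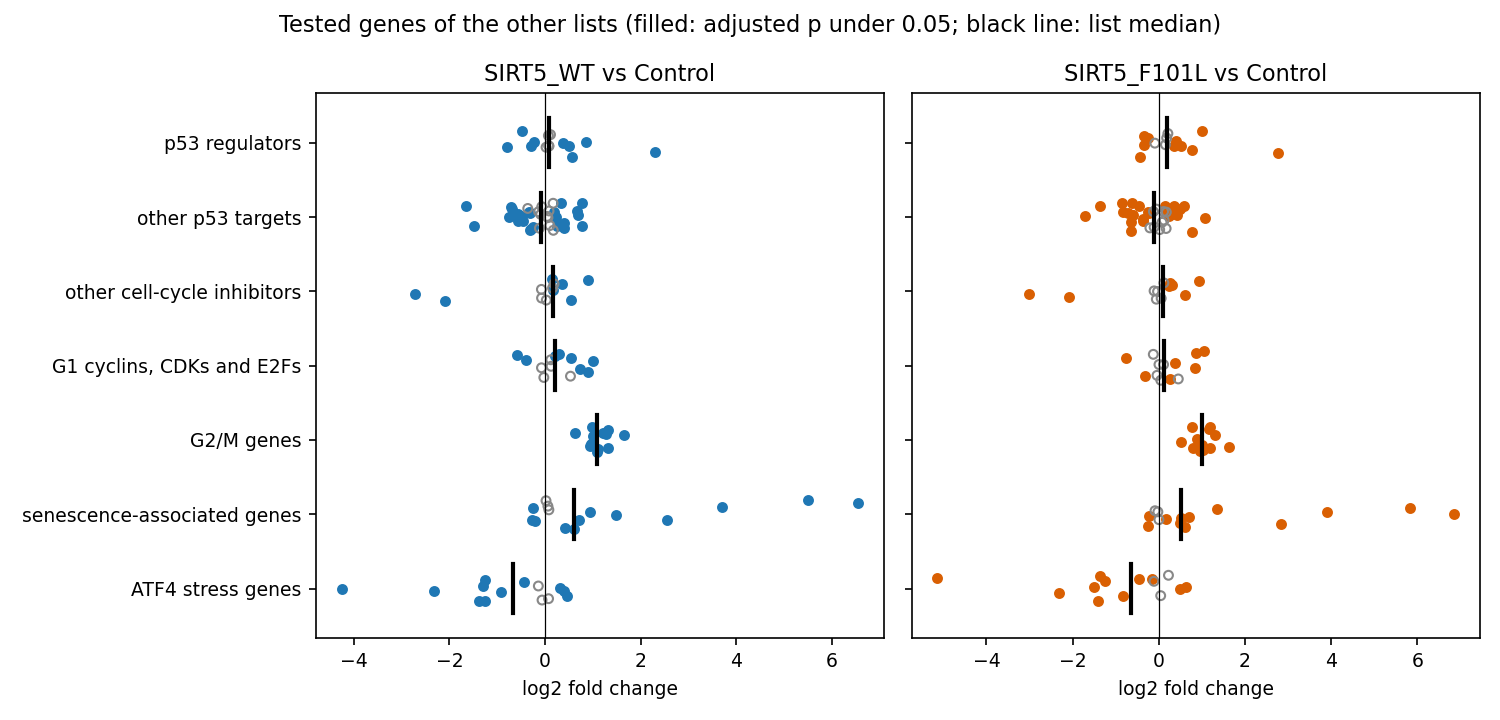
Log2 fold changes against Control (horizontal axes) of the tested genes of 7 further lists, for SIRT5_WT (left) and SIRT5_F101L (right); points are genes, filled where edgeR's adjusted p was under 0.05, and black lines are list medians. The G2/M genes all lie above 0, the ATF4 list has its median below 0 (-0.67 and -0.65), and the p53 targets lie on both sides.

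Between the plasmid groups, none of the 115 tested genes of these 7 lists passed edgeR's test. Without SIRT5_F101L replicate 1, 5 of 14 regulators of p53 were higher in SIRT5_F101L and none lower, among them Hipk2, at 0.67 (± 0.10 SE, adjusted p of 1.98e-05 by edgeR), Trp63, at 0.58 (± 0.14 SE, adjusted p of 0.00531 by edgeR), and Atm, at 0.24 (± 0.08 SE, adjusted p of 0.0342 by edgeR). Of the 35 further p53 targets 2 were then higher and 7 lower, with Bax at -0.41 (± 0.07 SE, adjusted p of 2.34e-04 by edgeR). With all libraries and no filter beyond 1 count, Bax (-0.28, adjusted p of 0.0263 by edgeR) and Hipk2 (0.46, adjusted p of 7.46e-07 by edgeR) were also called. Without SIRT5_F101L replicate 1, none of the 12 further inhibitors was higher and 2 were lower, Cdkn2c (-0.20) and Cdkn2d (-0.35). Of the 13 G1 genes Cdk6 was higher (0.24) and Cdk4 lower (-0.30), and of the 12 G2/M genes none was called. Of the 15 senescence-associated genes 3 were higher, among them Il6 (0.33) and Mmp3 (0.24), and 2 were lower. Il6 and Mmp3 were also called with all libraries by edgeR with no filter beyond 1 count (0.31 and 0.29) and by DESeq2 (0.32 and 0.30). Of the 14 ATF4 genes 1 was higher and 4 were lower without SIRT5_F101L replicate 1, among them Ddit4 (-0.33) and Chac1 (-0.26). These counts stand beside 6.66% of all genes called higher and 8.58% called lower in that fit. Its p-values are descriptive, because the library left out was picked out from these same counts.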

How the data were processed

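Each library's deposited file lists Ensembl gene IDs with raw counts in whole numbers and has no header. Per the submitters' processing notes, FastQC 0.11.9, HISAT2 2.2.1, HTSeq 2.0.2, DESeq2 1.38.3 and the build GRCm39 were used, and their roles, the annotation release and the strand setting are not given in the sources used here. Symbols came from a supplied table and covered 52029 of 57010 IDs. For Ddit3, held by 2 IDs, the ID with counts was used. No pair of libraries was identical, and within groups the median chi-square of counts was 2.56 to 8.92 times sampling noise.

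Counts were fitted with edgeR (4.0.16, R 4.3.3): TMM scaling, the default filter by group (14253 genes left), then quasi-likelihood fitting with 3 group means over the 12 libraries, which leaves 9 residual degrees of freedom. Tests were 2-sided with Benjamini-Hochberg adjustment over all tested genes. Standard errors are the fold change divided by the square root of F. CPM values are TMM-scaled. The scripts were tested on simulated data with known changes. Alternatives were scaling by RLE or upper quartile, filtering at 1 count or at a mean of 1 CPM, DESeq2 (1.42.0), only the 8 libraries compared, and leaving out each library.

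The members and lists were chosen with earlier results of these data known. Named genes are the 10 members, Sirt5, Mdm4, Bax, Bbc3, Cdkn2c and Lmnb1, and per list and comparison with Control the 2 highest and 2 lowest calls among genes whose mean reached 5 CPM. Exon lengths and overlaps came from GENCODE M21 and near-identical copies (95% identity over at least 100 bases) from BLAST 2.17.0, both on a build other than the submitters'. Promoter windows are RefSeq's on GRCm38.p6.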

Additional observations from a re-analysis of the deposited data

Results flagged for a closer look

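Libraries that stood away from the rest of their group were sought in 51 sets of 4 libraries by Dixon's ratio of gap to range. It marked 7, where chance gives 2.55. Cdkn1b was at 92.8 CPM in Control replicate 2, against 79.3 to 80.8 in the other 3, and at 48.7 CPM in SIRT5_F101L replicate 2, against 41.4 to 42.1. Cdkn2a was at 86.3 CPM in SIRT5_F101L replicate 1, against 58.2 to 62.4. Sirt5 was at 1.23 CPM in SIRT5_F101L replicate 2, against 0.481 to 0.602, which rests on 19 counts. The summed chondrocyte markers were at 9229 CPM in Control replicate 2, against 11255 to 11591, and at 2966 CPM in SIRT5_WT replicate 3, against 2851 to 2869. The summed fibroblast markers were at 30072 CPM in Control replicate 2, against 35147 to 35976.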

How the results depend on the processing

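Against Control, 8 members were called for SIRT5_WT in every alternative and 7 or 8 for SIRT5_F101L, where Ccng1 was lost with upper-quartile scaling (0.11) and with no filter beyond 1 count (0.16). The counts of all genes called stayed within 1.5 times. Between the plasmid groups the count of called genes, 6, became 354 with no filter beyond 1 count, 44 with DESeq2 and 2 with only the 8 libraries compared. Leaving out 1 library gave 0 to 2213 genes, the highest without SIRT5_F101L replicate 1, and 0 to 2 members. The sign turned for values near 0: Sesn2 between the plasmid groups was -0.000185 with no filter and -0.0573 to 0.0488 with 1 library left out. Sirt5 in SIRT5_F101L against Control was -0.0109 with upper-quartile scaling and -0.31 to 0.18 with 1 library left out, and Cdkn2c in the same comparison -0.0404 to 0.0902 with 1 library left out. Among the other named genes, the calls that were lost or gained with 1 library left out are given beside each gene above, and so are the changes under the other 6 alternatives of Trp63 and Mdm4. In these 6, upper-quartile scaling lost Rb1 (0.30) and Slc7a11 (0.26) in SIRT5_WT, the 8-library fit gained Cdkn2c there (0.17), and no filter beyond 1 count gained Ddit4 in SIRT5_F101L (0.22). Between the plasmid groups, where 16 other named genes were recomputed, no filter beyond 1 count gained Bax, Hipk2, Il6 and Mmp3, and DESeq2 gained Il6 and Mmp3. The cause of these changes was not tested. Scaling moved the median of all genes by less than 0.1. No paired analysis was possible because the labels give no replicate numbers and the numbers used here only name libraries. Depth limited how narrowly Sirt5 was estimated, at 1 to 19 counts, whereas tested members had at least 471 counts per library.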

Other observations

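Relatives of the members did not always move with them, and those below, apart from Btg1, were named after their values were seen. Paired values are log2 fold changes against Control for SIRT5_WT and then SIRT5_F101L. In the BTG and TOB family of antiproliferative genes, Btg2 fell while Btg1 rose (0.89 in SIRT5_WT and 0.94 in SIRT5_F101L). Btg3 (-0.07 and -0.06, edgeR adjusted p 0.402 and 0.505) and Tob2 (0.03 and -0.11, edgeR adjusted p 0.779 and 0.18) did not pass, and Tob1 passed in SIRT5_WT, at 0.16 (± 0.06 SE, adjusted p of 0.0289 by edgeR), and not in SIRT5_F101L, at 0.12 (± 0.06 SE, adjusted p of 0.09 by edgeR). The difference between the plasmid groups was not past the threshold for any of them (adjusted p of 0.742, 0.952, 0.441 and 0.813 by edgeR). The 3 sestrins were called lower, as were 28.1% of all genes in SIRT5_WT and 30.7% in SIRT5_F101L: Sesn1 (-0.33 and -0.37), Sesn3 (-0.92 and -0.84) and Sesn2 (-1.0 and -1.0). Ccng2, the relative of Ccng1 that is raised in arrested cells, rose by 0.17 and 0.24.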
